A study of Homo sapiens with 24 samples.

Results

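The miR-135 family was examined in OV90, an established human ovarian carcinoma cell line, after inducible silencing of the NF-κB subunits RELA or RELB. The members were the 3 rows named hsa-miR-135a-5p, hsa-miR-135b-5p and hsa-miR-135b-3p, of 2656 mature miRNAs in the table. They were selected on earlier results of these libraries, in which the adherent level of miR-135b-5p had fallen with shRELA and risen with shRELB. Their adherent knockdown values are therefore descriptions and carry no test. The study comprised 24 small RNA libraries in 6 groups of 4: shNeg (a negative control shRNA, whose genotype the labels give as Wildtype), shRELA and shRELB, each in adherent and in spheroid culture. All 6 groups received 1 µg/ml doxycycline for 72 h to switch the shRNA on, so the shNeg cells carried the drug too. Adherent cells grew in RPMI with fetal calf serum. Spheroids grew in low-attachment plates in DMEM-F12 with serum replacement, EGF and FGF, so the effects of shape and of medium cannot be told apart. The labels do not say that the 4 libraries of a group came from separate cultures, and p-values measure only the spread between them. A single cell line and 1 shRNA label per subunit limit each group as a model.

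MicroRNAs are short RNAs of about the length of a siRNA that are cut from both arms of a hairpin precursor and guide repression of transcripts that pair with the seed near their 5′ end. RELA is the main transactivating subunit of the canonical NF-κB pathway and RELB that of the non-canonical pathway. The miR-135 family is best known from colorectal cancer, where miR-135a and miR-135b repress the tumour suppressor APC, a brake on Wnt signalling. Humans have 3 miR-135 hairpins, and the 5p arms are usually the more abundant products.

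The sequences show how alike the arms are, which bears on every count below. All 5 arms of the 3 hairpins were matched by name in RefSeq (GRCh38.p14), and each is written 5′ to 3′ with the seed, bases 2 to 8, in capitals.
miR-135a-5p: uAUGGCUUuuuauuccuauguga
miR-135b-5p: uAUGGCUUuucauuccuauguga
miR-135b-3p: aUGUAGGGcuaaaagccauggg
miR-135a-2-3p: aUGUAGGGauggaagccaugaa
miR-135a-3p: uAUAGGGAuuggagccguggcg

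The 2 family members with the seed AUGGCUU, miR-135a-5p and miR-135b-5p, were the only human mature miRNAs in the RefSeq table with it. They are the same at 22 of 23 bases and differ by U11C, counted from the 5′ end and written from miR-135a-5p to miR-135b-5p. The 3p arms miR-135a-2-3p and miR-135b-3p also share a seed, UGUAGGG, and are the same at 17 of 22 bases. How many mismatches the authors' read assignment allowed is not given in the sources used here. Whether reads of either 5p arm were counted for the other was not tested.

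Both miR-135b members are cut from 1 hairpin, MIR135B, at chr1:205448302-205448398 on the minus strand. It is shown because it holds 2 of the 3 members, with both arms in capitals.
MIR135B: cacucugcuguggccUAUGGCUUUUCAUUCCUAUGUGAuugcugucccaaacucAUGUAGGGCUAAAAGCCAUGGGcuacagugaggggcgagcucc

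In the GENCODE annotation MIR135B lay within introns of LEMD1 and BLACAT1 on their own strand. The miR-135a-5p sequence occurs in 2 hairpins. MIR135A1 (chr3:52294219-52294308, minus strand) lay within GLYCTK-AS1, outside its exons, and opposite an exon of GLYCTK. MIR135A2 (chr12:97563812-97563911, plus strand) lay in an intron of the long non-coding RNA RMST. Reads of miR-135a-5p cannot be assigned to either, whereas the 3p arms tell the hairpins apart, miR-135a-3p being cut from MIR135A1 and miR-135a-2-3p from MIR135A2.

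Library totals ran from 3797176 to 8283546 counts in adherent culture and from 959134 to 3580932 in spheroids, so that rare miRNAs were measured less precisely in spheroids. Spheroid shNeg replicate 1 stood apart, with counts for 432 miRNAs where the other 3 of that group had 814 to 887, and the fitted spheroid shNeg comparisons of the 5p arms are also given without it. The silencing of RELA and RELB could not be read from small RNA. Of 7 epithelial marker miRNAs, which include the miR-200 family, 5 had counts in every library, led by miR-200c-3p. The same held for 5 of the 13 markers of other cell types. The epithelial means were 5450 CPM for miR-200c-3p, 1050 for miR-205-5p, 123 for miR-141-3p and 22.1 for miR-200b-3p. They were low for miR-200a-3p (6.04 CPM), miR-203a-3p (1.22) and miR-429 (0.738). Of 13 markers of other cell types none was at 0 throughout, and their summed 14570 to 38300 CPM were mostly miR-122-5p (mean 19600 CPM), a defining marker of liver, which the label of an ovarian line does not call for, and the endothelial miR-126-3p (3090 CPM). Erythroid miR-486-5p averaged 145 CPM, with miR-451a at 1.72 and miR-144-3p at 0.112. Among leukocyte markers miR-150-5p averaged 11.3 CPM and miR-142-3p, miR-223-3p and miR-142-5p between 0.0416 and 1.74. The fibroblast and smooth muscle miRNAs miR-143-3p and miR-145-5p averaged 66.7 and 37.7 CPM, and the muscle miRNAs miR-1-3p and miR-133a-3p stayed below 1 CPM. In bulk libraries, fewer cells that express a miRNA and less of it per cell cannot be told apart.

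Adherent miR-135b-5p gave the pattern by which the family was chosen. The shNeg libraries held 41, 32, 38 and 43 counts. The shRELA libraries held 18, 13, 13 and 14 counts, and the shRELB libraries 140, 90, 204 and 93. No shRELA library reached the lowest shNeg library and no shRELB library came down to the highest, so the 3 groups did not overlap. As CPM, each library's count scaled by TMM to a common total, the means were 7.38 ± 0.814 (SD, n = 4) in shNeg, 2.56 ± 0.285 in shRELA and 24.5 ± 7.19 in shRELB. On the log2 scale miR-135b-5p differed from shNeg by -1.51 (SE 0.37) with shRELA and by 1.73 (SE 0.34) with shRELB, both against the same 4 shNeg libraries. The shRELB libraries stood 3.24 (SE 0.37) above the shRELA libraries.

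miR-135a-5p, which carries the same seed, did not share this order in adherent cells. It had 157, 118, 100 and 83.5 counts in shNeg and 147, 62, 81 and 183 in shRELA. In shRELB it had 23, 15, 27.5 and 19 counts, the fractions coming from the authors' table. Every shRELB library was below every other adherent library, and shNeg and shRELA overlapped. Its mean was 22.5 ± 7.72 CPM in shNeg, 20.5 ± 8.38 in shRELA and 3.99 ± 0.556 in shRELB. The log2 differences from shNeg were -0.13 (SE 0.41) with shRELA and -2.47 (SE 0.45) with shRELB, and shRELB stood at -2.34 (SE 0.45) against shRELA.

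miR-135b-3p, the other product of the MIR135B hairpin, was rare. Adherent libraries held 4, 2, 1 and 3 counts in shNeg, 2, 1, 3 and 1 in shRELA and 16, 2, 16 and 16 in shRELB. Of the shRELB libraries 3 lay above all others and replicate 2 did not. The log2 differences were -0.55 (SE 0.92) for shRELA and 2.20 (SE 0.82) for shRELB against shNeg, and 2.75 (SE 0.85) between the knockdowns. This arm reached 1 CPM only in shRELB libraries and so was tested only because it was high there.

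A call required an FDR below 0.01 and more than a 2-fold change in edgeR's quasi-likelihood test over 905 miRNAs. Among adherent libraries, 1 of 3 members met it for shRELA against shNeg, where 3.76% of all miRNAs tested did. The count was 2 of 3 for shRELB against shNeg (7.07% of all) and 2 of 3 for shRELB against shRELA (10.9% of all). These comparisons chose the members, and nothing is read from the counts.

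**Figure D1:**
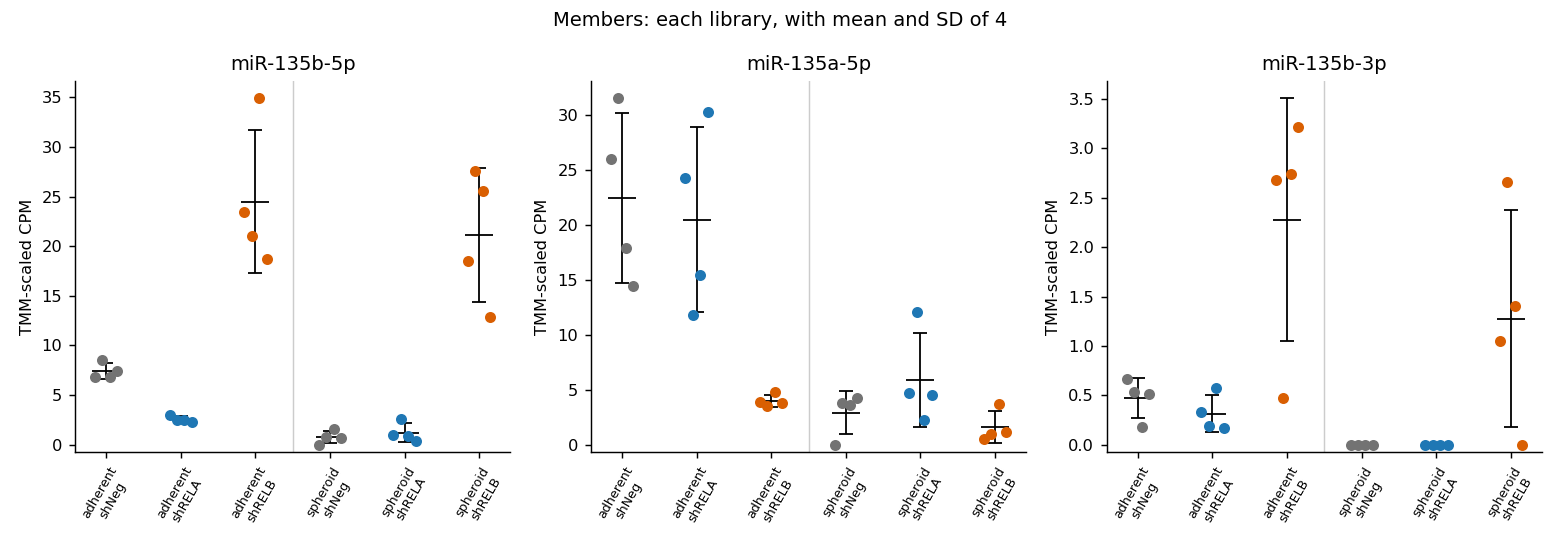
TMM-scaled CPM of miR-135b-5p, miR-135a-5p and miR-135b-3p in each of the 24 libraries (dots) by group, with the mean and SD of 4 libraries (bars) and a vertical axis of its own per panel. miR-135b-5p averaged 24.5 CPM in adherent and 21.1 CPM in spheroid shRELB and was below 9 CPM in every other library, while miR-135a-5p was highest in adherent shNeg and shRELA.

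Spheroid values did not enter the adherent pattern that chose the members, although they too were known from earlier results. Among the 3 spheroid groups, miR-135b-5p was high in shRELB alone. The shNeg libraries held 0, 1, 3 and 1 counts and the shRELA libraries 2, 5, 2 and 1. The shRELB libraries held 35, 83, 55 and 45 counts. The lowest shRELB library was thus above all 8 others, and shNeg and shRELA overlapped. The means were 0.751 ± 0.629 CPM in shNeg, 1.21 ± 0.978 in shRELA and 21.1 ± 6.74 in shRELB (SD, n = 4). The limit that a count of 0 leaves, 3 counts, equalled 1.54 to 2.29 CPM per spheroid shNeg library, so the shNeg level was at the limit of what this depth could show.

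Against shNeg, spheroid miR-135b-5p rose by 4.64 (SE 0.53) on the log2 scale with shRELB (edgeR FDR 1.76e-08), with a ratio of pooled counts, relative to the pooled library sizes, of 25.0 (exact 95% interval 10.6 to 77.8). Intervals of pooled counts cover counting error only. The log2 difference was 4.27 (FDR 4.37e-09) without spheroid shNeg replicate 1 and 5.28 (FDR 1.92e-07) without replicate 3, which holds 3 of the 5 shNeg counts. It was 1 of 3 members called, beside 13.4% of all miRNAs tested. Against shRELA it was 4.17 higher (SE 0.46, edgeR FDR 1.73e-08), with a pooled ratio of 18.4 (9.82 to 38.9), again 1 of 3 members beside 6.63% of all, and 4.81 higher without spheroid shRELA replicate 2. With shRELA against shNeg the difference was 0.47 (SE 0.75, edgeR FDR 0.702) and was not called, and none of the 3 members was, beside 15.1% of all, with 0 members at an unadjusted p below 0.05 in edgeR and 0 in DESeq2. The 3 members of these spheroid counts include miR-135b-3p, which passed the filter only through shRELB libraries. It had no count in spheroid shNeg or shRELA, so between those groups it could not have been called. The miR-135b-5p difference of shRELA from shNeg was -0.18 without spheroid shRELA replicate 2, 1.13 without spheroid shNeg replicate 3 and 0.10 without spheroid shNeg replicate 1. The fall seen with shRELA in adherent cells was thus not seen in spheroids, where 5 shNeg counts in all left little room for one to be detected. The difference between the cultures in the RELA response was not tested.

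Spheroid miR-135a-5p was low in all 3 groups. Its counts were 0, 5, 7 and 6 in shNeg, 10, 23, 5 and 12 in shRELA and 1, 3, 8 and 4 in shRELB. The groups overlapped in every pair. The means were 2.91 ± 1.95, 5.89 ± 4.28 and 1.60 ± 1.44 CPM. Against shNeg the log2 differences were 0.96 (SE 0.59, edgeR FDR 0.228) with shRELA and -0.92 (SE 0.68, edgeR FDR 0.328) with shRELB. Without spheroid shNeg replicate 1 they were 0.57 (FDR 0.471) and -1.31 (FDR 0.127). Between the knockdowns it was -1.88 (SE 0.59, edgeR FDR 0.026), which was not called. That comparison met the call rule without spheroid shNeg replicate 1 (FDR 0.00488), without spheroid shRELB replicate 3 (FDR 0.00884) and with DESeq2 (FDR 0.00572). In the other 13 settings it did not, with FDRs up to 0.168, reached without spheroid shRELA replicate 2, where the log2 difference was -1.29.

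Spheroid miR-135b-3p had no count in any shNeg or shRELA library and 2, 8, 3 and 0 counts in shRELB. The exact lower 95% limit of the pooled ratio was 1.75 against shNeg and 2.57 against shRELA, counting error only. No test is given, because only shRELB libraries had brought this arm past the filter. The shRELB mean of 1.28 CPM was below the 1.54 to 2.29 CPM that 3 counts are worth in a spheroid shNeg library, so a level of that size could have gone uncounted in any 1 of them.

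The change of each 5p arm between the knockdowns had the same sign in both cultures. The shRELB against shRELA change, spheroid minus adherent, was 0.92 (SE 0.61) for miR-135b-5p and 0.47 (SE 0.78) for miR-135a-5p, and it includes the adherent values that chose the family.

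**Figure D2:**
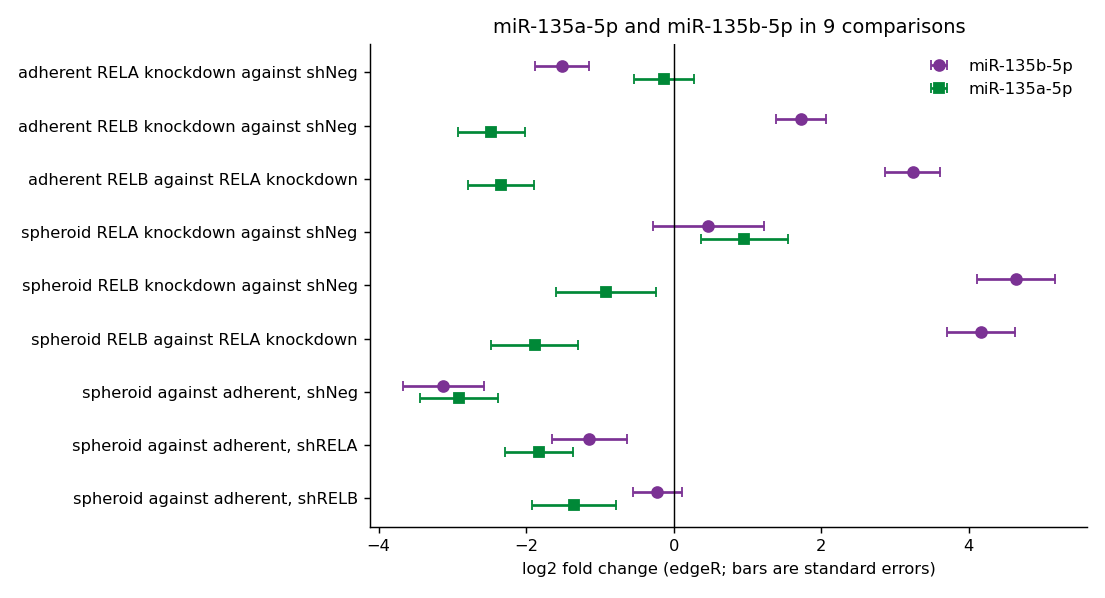
Log2 fold changes of miR-135b-5p (circles) and miR-135a-5p (squares) in 9 comparisons from edgeR, with standard errors as bars and the first-named group above 0 where it was higher. In shRELB against shRELA the arms lay on opposite sides of 0 in both cultures, at 3.24 and -2.34 in adherent cells and at 4.17 and -1.88 in spheroids.

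Because both 5p arms carry 1 seed, their shares within each library were compared, a measure that does not depend on scaling between libraries. In adherent cells miR-135b-5p made up 20.7, 21.3, 27.5 and 34.0% of the pair in shNeg and 10.9, 17.3, 13.8 and 7.11% in shRELA. In shRELB it made up 85.9, 85.7, 88.1 and 83.0%. The minor arm of shNeg and shRELA cells was thus the major arm in every shRELB library. Pooled over libraries the shares were 25.1% (Clopper-Pearson 95% interval 21.7 to 28.8), 10.9% (8.40 to 13.9) and 86.1% (83.1 to 88.8).

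Spheroids showed the same order of shares for shRELB. miR-135b-5p made up 97.2, 96.5, 87.3 and 91.8% of the pair in shRELB and 16.7, 17.9, 28.6 and 7.69% in shRELA. In shNeg it was 16.7, 30 and 14.3% in replicates 2 to 4, and replicate 1 had no count of either arm. The pooled shares were 21.7% (7.46 to 43.7) of only 23 counts in shNeg, 16.7% (8.29 to 28.5) in shRELA and 93.2% (89.1 to 96.0) in shRELB. The shRELB libraries did not overlap any other spheroid library.

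As a log2 ratio of miR-135a-5p to miR-135b-5p with 0.5 counts added to each, spheroids averaged 1.27 in shNeg, 2.09 in shRELA and -3.80 in shRELB. The shNeg mean, and the differences from it, include replicate 1, whose ratio of 0.0 rests on the added counts alone. Replicates 2 to 4 of shNeg stood at 1.87, 1.1 and 2.12. The difference of shRELB from shNeg was -5.07 and that from shRELA was -5.89. Each gave a two-sided exact permutation p of 0.0286, the smallest that 4 against 4 libraries allow, and 0.0857 after Benjamini-Hochberg adjustment over 12 ratio comparisons, so neither passed. The shRELA difference from shNeg was 0.82 (exact permutation p = 0.229, adjusted 0.343).

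The group means of the summed 2 arms lay closer together in adherent cells than those of either arm. The sum averaged 29.9 ± 8.21 CPM (SD, n = 4) in shNeg, 23.0 ± 8.40 in shRELA and 28.5 ± 7.71 in shRELB, and the 3 ranges overlapped. In spheroids it averaged 3.66 ± 2.45, 7.10 ± 5.18 and 22.7 ± 7.46 CPM. Here miR-135b-5p supplied most of the shRELB sum, and 3 of the 4 shRELB libraries lay above every other spheroid library.

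**Figure D3:**
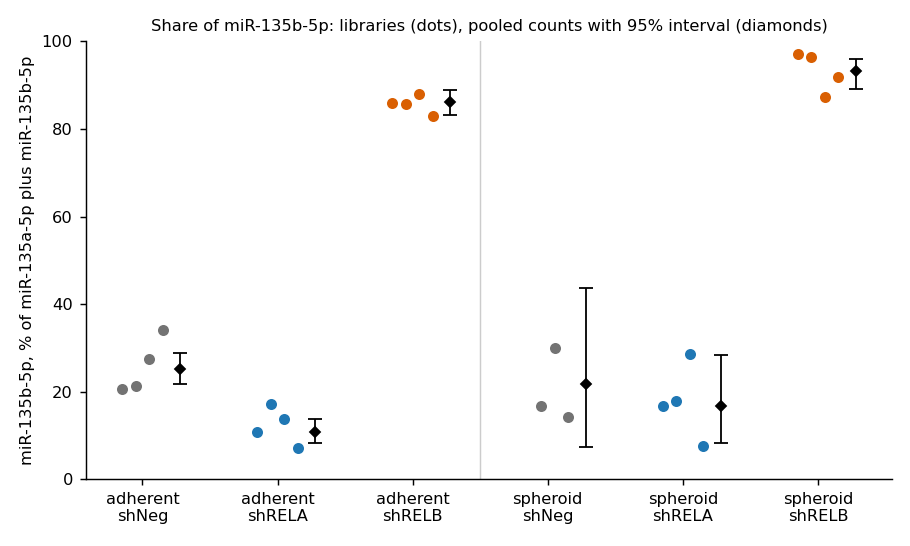
Share of miR-135b-5p in the summed counts of miR-135a-5p and miR-135b-5p, in percent, for each library with counts (dots) and for pooled counts of the group with the 95% Clopper-Pearson interval (diamonds and bars). The shRELB libraries lay between 83.0 and 97.2%, and the highest of all others was 34.0%.

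Across the 6 groups miR-135b-5p ranked adherent shRELB, spheroid shRELB, adherent shNeg, adherent shRELA, spheroid shRELA and spheroid shNeg. The shRELB groups overlapped each other, and so did adherent shRELA with spheroid shRELA and spheroid shRELA with spheroid shNeg. Spheroid shRELB, adherent shNeg and adherent shRELA were separate from each other. By mean CPM it held place 248 of 905 tested miRNAs in adherent shRELB and place 696 in spheroid shNeg, so it was never among the abundant miRNAs of these cells.

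Spheroid and adherent libraries were then compared within each shRNA. The adherent side of each comparison is formed by libraries that chose the members. The FDRs and calls of the members below are therefore tied to that choice and serve as descriptions. Counted among the 3 members, miR-135b-3p had no count in spheroid shNeg or shRELA. In shNeg cells miR-135b-5p was lower in spheroids, with a log2 difference of -3.12 (SE 0.55, edgeR FDR 1.23e-05), and so was miR-135a-5p, with -2.91 (SE 0.53, edgeR FDR 1.81e-05). Without spheroid shNeg replicate 1 these were -2.76 (FDR 3.76e-05) and -2.53 (FDR 9.3e-06), and without replicate 3 that of miR-135b-5p was -3.98 (FDR 1.64e-05). The 5p arms were 2 of 3 members called, where 42.2% of all miRNAs were. In shRELA cells miR-135a-5p was lower, at -1.82 (SE 0.46, edgeR FDR 0.00152), 1 of 3 members called beside 32.6% of all, and miR-135b-5p differed by -1.14 (SE 0.51, edgeR FDR 0.0634). Without spheroid shRELA replicate 2 these were -2.41 (FDR 0.000286) and -1.79 (FDR 0.0136). In shRELB cells none of 3 members was called by edgeR beside 25.0% of all, and none by DESeq2, with 1 of them at an unadjusted p below 0.05 in each tool. There miR-135b-5p differed by -0.22 (SE 0.33, edgeR FDR 0.614) and miR-135a-5p by -1.35 (SE 0.57, edgeR FDR 0.0538). For miR-135b-3p, which passed the filter only through shRELB libraries, the difference was -0.84 (SE 0.81), given without its FDR. The culture difference of miR-135b-5p in shRELB minus that in shRELA is the 0.92 (SE 0.61) given above, and its difference between shNeg and either knockdown was not tested.

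The culture values depend on the reference. miR-30e-5p, which served as the reference of the study's qRT-PCR, itself averaged 1246, 1728 and 1143 CPM in adherent shNeg, shRELA and shRELB and 386, 442 and 456 CPM in spheroids. Relative to it, miR-135b-5p was lower in spheroid shNeg, at -1.26 on the log2 scale, but higher in spheroid shRELA by 0.77 and in spheroid shRELB by 1.10. miR-135a-5p then differed by -1.52 in shNeg and by 0.00 and -0.13 in shRELA and shRELB. Knockdown values of miR-135b-5p relative to miR-30e-5p kept their direction, at -1.90 and 1.81 for adherent shRELA and shRELB and at 0.14 and 4.17 for spheroid shRELA and shRELB.

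The remaining arms of the miR-135a hairpins were scarce and did not follow the same order over the groups. miR-135a-3p, from MIR135A1, had 1, 0, 2 and 4 counts in adherent shNeg, 8, 1, 5 and 0 in shRELA and 3, 1, 9 and 6 in shRELB. In spheroids it had 0, 2, 0 and 0 counts in shNeg, 1, 0, 2 and 6 in shRELA and 12, 14, 16 and 24 in shRELB. The 4 spheroid shRELB libraries, at 6.33 ± 1.20 CPM, did not overlap any other group.

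Against spheroid shNeg, miR-135a-3p was higher with shRELB by 4.09 (SE 1.06, edgeR FDR 0.00399), with a pooled ratio of 18.9 (exact 95% interval 5.04 to 160). Without spheroid shNeg replicate 2, the 1 shNeg library with counts, the fit gave 7.51 and had only empty shNeg libraries to compare with, and without replicate 1 it gave 3.75 (FDR 0.00619). The call was lost without spheroid shNeg replicate 3 (FDR 0.0189) or 4 (FDR 0.0152), without spheroid shRELB replicate 4 (FDR 0.0101) and with only the groups compared (FDR 0.0486). Against shRELA it was higher by 2.66 (SE 0.84, edgeR FDR 0.026) and not called. It was called without spheroid shNeg replicate 1 (FDR 0.00723), with DESeq2 (FDR 0.00918), with limma (FDR 0.000335) and with only the groups compared (FDR 0.00513). It was not called without any 1 of the 8 libraries compared, with FDRs from 0.0164 to 0.0758, and it stood at 3.60 without spheroid shRELA replicate 4. In shRELB cells it was higher in spheroids than in adherent culture by 2.79 (SE 0.77, edgeR FDR 0.00404), a call lost without adherent shRELB replicate 1 (FDR 0.0191) or 2 (FDR 0.0183) and without spheroid shRELB replicate 3 (FDR 0.01) or 4 (FDR 0.0144).

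miR-135a-2-3p, from MIR135A2, went the other way in these counts. It had 20, 12, 28 and 14 counts in adherent shNeg, 23, 13, 9 and 9 in shRELA and 6, 6, 8 and 6 in shRELB. In spheroids it had 0, 0, 6 and 2 counts in shNeg, 2, 1, 3 and 0 in shRELA and 0, 0, 1 and 0 in shRELB. The adherent shRELB libraries lay below all other adherent libraries, at a log2 difference from shNeg of -1.47 (SE 0.63). In shRELB cells spheroid against adherent was not called (edgeR FDR 0.0147, pooled ratio 0.0768, 0.00187 to 0.468), and it was called by DESeq2 (FDR 0.00901), without spheroid shRELB replicate 3 (FDR 0.00663) and without spheroid shNeg replicate 1 (FDR 0.00753). Spheroid miR-135a-5p, which both loci can supply, was low in shRELB where miR-135a-3p was high. Over the spheroid shRELB libraries it had 16 counts, where miR-135a-3p had 66. How far a 3p arm follows the output of its hairpin was not tested.

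**Figure D4:**
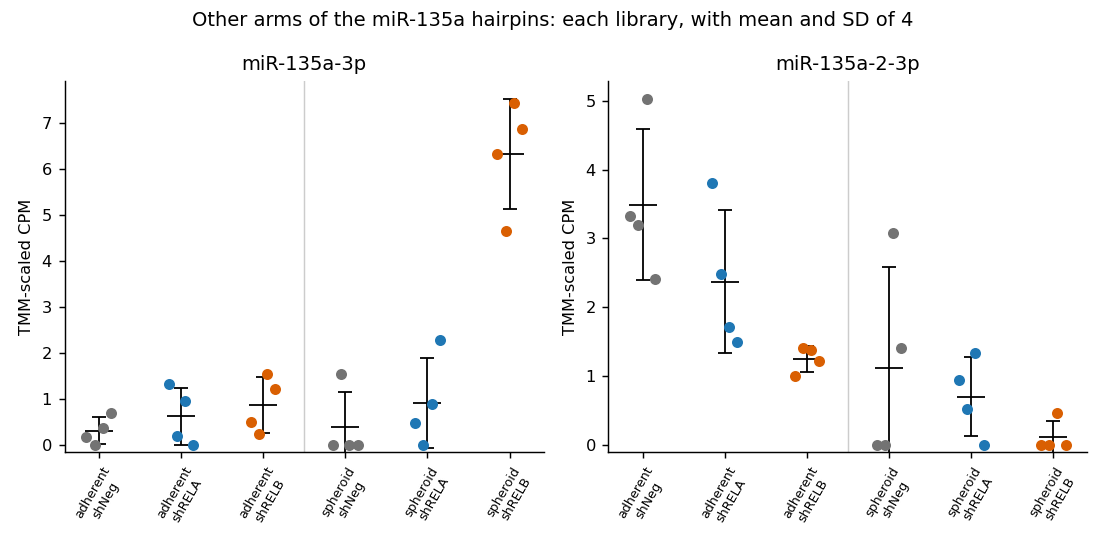
TMM-scaled CPM of miR-135a-3p (hairpin MIR135A1) and miR-135a-2-3p (hairpin MIR135A2) in each library (dots) by group, with the mean and SD of 4 libraries (bars). miR-135a-3p averaged 6.33 CPM in spheroid shRELB and below 1 CPM in each other group, and miR-135a-2-3p was highest in adherent shNeg at 3.49 CPM.

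The 2 arms of MIR135B were compared within libraries as well. Their log2 ratio, 5p to 3p with 0.5 counts added, averaged 3.81 in adherent shNeg, 2.82 in shRELA and 3.60 in shRELB, and 4.4 in spheroid shRELB. The 3p arm was at 0 in spheroid shNeg and shRELA, where the ratio rests on the added count. In shRELB cells spheroid and adherent ratios differed by 0.80. That value is a description, because the 3p arm passed the filter only through shRELB libraries and the adherent libraries chose the members.

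Hairpins near the miR-135 loci were looked up as genomic context. The nearest hairpin with a tested arm was MIRLET7G, 25.9 kb from MIR135A1 on the same strand and the source of let-7g-5p, a member of the let-7 tumour suppressor family. MIR1251 lay 71.8 kb from MIR135A2. For MIR135B the nearest were MIR6769B at 1026.4 kb and MIR6740 at 3445.1 kb, so MIR135B had no close neighbour. None of the 7 tested arms of the neighbours on either side of the 3 loci was called in shRELB against shRELA by edgeR or DESeq2 in either culture, and by edgeR 1 in adherent cells and 0 in spheroids had an unadjusted p below 0.05. With 10.9% and 6.63% of all miRNAs called in these comparisons, 0 of 7 is not a result about the neighbours. let-7g-5p stood at -0.57 (SE 0.22, edgeR FDR 0.0503) in adherent cells and -0.25 (SE 0.21, edgeR FDR 0.482) in spheroids in that comparison.

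Other miRNAs were ranked by likeness to miR-135b-5p, as Pearson's r of log2(CPM + 1) over the 24 libraries, among the 335 candidates that averaged 10 CPM or more. The highest were miR-146a-5p (r = 0.90), a feedback inhibitor of NF-κB signalling through TRAF6 and IRAK1, miR-141-3p (0.88), of the epithelial miR-200 family, miR-181b-5p (0.83), miR-503-5p (0.82) and miR-184 (0.82). The libraries share cell line and groups, the r values are descriptions, and of the 5 only 2 were also among the first 5 by Spearman's rho. Between shRELB and shRELA the log2 differences in adherent cells and spheroids were 1.18 and 1.10 for miR-146a-5p, 1.27 and 1.11 for miR-141-3p, 0.81 and 0.41 for miR-181b-5p, 0.93 and 1.5 for miR-503-5p and 3.85 and 2.48 for miR-184. Each was higher under shRELB in both cultures, as their choice for likeness largely fixed.

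The summed level of the epithelial marker list, to which miR-141-3p belongs, moved with the groups in adherent cells. Most of the sum was miR-200c-3p (mean 5450 CPM), followed by miR-205-5p (mean 1050 CPM). The paper lists miR-205-5p among the miRNAs lowered by either knockdown in both cultures. The sum therefore does not show that the members moved together, and of them only miR-141-3p was followed by group. The sum was 4853 to 5075 CPM in shNeg, 2486 to 3449 in shRELA and 7800 to 9636 in shRELB. In spheroids it was 3238 to 4631 CPM in shNeg, 4490 to 8001 in shRELA and 7912 to 16340 in shRELB. The markers of other cell types summed to 25700 to 28540 CPM, 25500 to 38300 and 20850 to 24430 in the adherent groups and to 17570 to 25470, 15680 to 17250 and 14570 to 22630 in the spheroid groups, in the same order. The part of either list in the miR-135b-5p values was not tested.

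**Figure D5:**
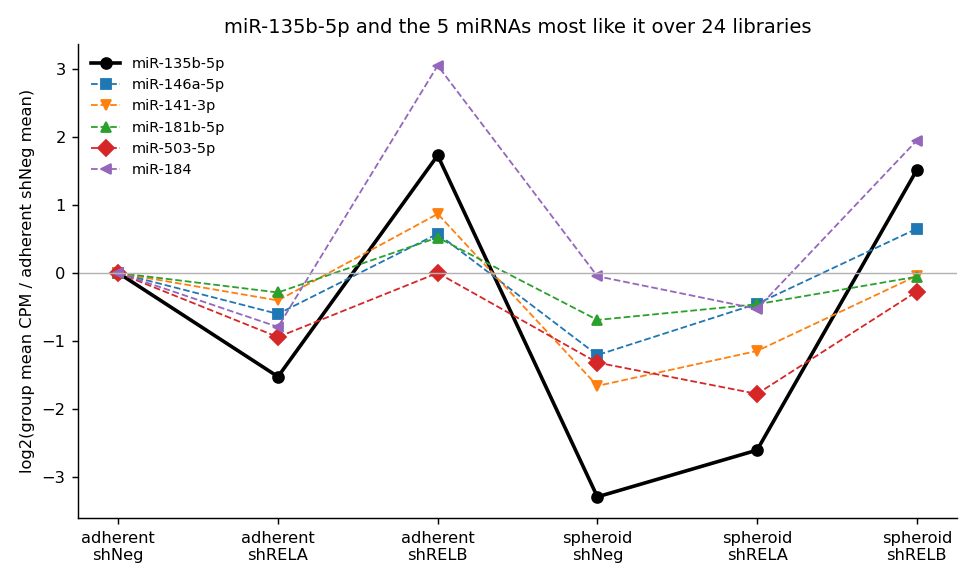
Log2 ratio of each group's mean CPM to the adherent shNeg mean for miR-135b-5p (solid line) and the 5 miRNAs most like it over 24 libraries (dashed lines). All 6 were lower in shRELA than in shRELB in both cultures, and miR-135b-5p had the lowest spheroid shNeg value of the 6.

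As pathway context, 13 miRNAs linked to NF-κB in textbook accounts were followed, of which 12 were tested and miR-155-3p had no count. In shRELB against shRELA, 3 were called higher and 1 lower in adherent cells, and 2 higher and 1 lower in spheroids, beside 10.9% and 6.63% of all miRNAs called in either direction. Higher were miR-146a-5p in both cultures (above), miR-125b-5p by 5.24 (SE 0.24, edgeR FDR 2.82e-18) in adherent cells and 4.14 (SE 0.24, edgeR FDR 2.07e-15) in spheroids, and miR-146b-3p in adherent cells by 1.54 (SE 0.28, edgeR FDR 7.49e-05). miR-9-5p, known to target NFKB1, was lower, at -1.14 (SE 0.27, edgeR FDR 0.00203) and -1.03 (SE 0.28, edgeR FDR 0.00865), the latter a call lost without spheroid shRELA replicate 2, 3 or 4 or spheroid shRELB replicate 1, 2 or 3 (FDR 0.0113 to 0.0395). The spheroid call of miR-146a-5p was lost without shRELB replicate 4, where its log2 difference was 0.93. miR-125b-5p lay at 15.2 CPM in adherent shRELA against 505 in shNeg and 576 in shRELB, so its gap came from the shRELA libraries. Adherent miR-135b-5p differed from shNeg in both knockdowns, which was not particular to it. With shRELA and shRELB, miR-146a-5p stood at -0.60 and 0.58, miR-181b-5p at -0.29 and 0.52 and miR-184 at -0.79 and 3.05. None of these overlapped adherent shNeg, and only miR-184 with shRELB was called. miR-141-3p with shRELA and miR-503-5p with shRELB did overlap it. The list's median log2 difference was 0.48 in adherent cells and 0.46 in spheroids, beside 0.02 and 0.10 over all 905 miRNAs. The list was chosen with earlier results of these data known, so its medians and calls are descriptions. It shares miR-146a-5p and miR-181b-5p with the miRNAs picked for likeness to miR-135b-5p.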

How the data were processed

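Small RNA of 24 OV90 libraries was measured in 6 groups of 4, assigned from the sample titles. The authors prepared QIAseq libraries, trimmed adapters with Cutadapt and assigned single-end reads to miRBase for GRCh38 with miRDeep2. The deposited values are estimated counts for each mature miRNA without scaling to library size, although the table is titled as CPM. Whether unique molecular indexes were collapsed is not given in the sources used here. Values that were not whole (3.04% of non-zero values, 2 of the 72 member values) were rounded for testing.

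Tests used R 4.3.3 and edgeR 4.0.16 (quasi-likelihood, TMM, the 6 groups as only term), with limma 3.58.1 and DESeq2 1.42.0 as alternatives and all tools tested on simulated data. The 905 miRNAs with 1 CPM in 4 libraries were tested, which held at least 99.98% of each library's counts. A call needed a Benjamini-Hochberg FDR below 0.01 and more than a 2-fold change. Standard errors are the log2 fold change over the root of F. CPM values are TMM-scaled. Ratios within libraries had 0.5 counts added (1 as the alternative) and were tested by two-sided exact permutation. The 95% intervals cover counting error only. Results were also recomputed without the filter and with a filter at a mean of 10 CPM, which no member passed. Further settings were median-ratio size factors or library totals as scaling, replicate numbers blocked, fits of the compared groups alone, and leaving out each library.

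The members and lists were chosen with earlier results of these data known. Named were the 3 members, the other arms of their hairpins, the 5 miRNAs most like miR-135b-5p, the nearest tested hairpins, miR-30e-5p, called miRNAs of a 13-member NF-κB list and 2 marker lists. Positions and sequences are from GRCh38.p14, gene overlaps from GENCODE.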

Additional observations from a re-analysis of the deposited data

Results flagged for a closer look

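Of 30 combinations of 5 arms and 6 groups, 3 held a library far from the other 3 by Dixon's criterion. miR-135b-3p was at 0 throughout spheroid shNeg and shRELA and could not be assessed there. The criterion flags about 1 of 20 by chance for continuous values. That rate does not hold for counts this low, where a single non-zero library among zeros is always flagged. miR-135a-5p was at 0.0 CPM in spheroid shNeg replicate 1, the library with the fewest miRNAs detected, and at 3.59 to 4.21 CPM in the other libraries of that group. miR-135a-3p was at 1.53 CPM in 1 spheroid shNeg library, from 2 counts, and at 0 in the others. miR-135a-2-3p was at 0.465 CPM in 1 spheroid shRELB library, from 1 count, and at 0 in the others.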

How the results depend on the processing

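Of 570 recomputed values of the members and of the ratios, 555 kept their direction and call, or moved by less than the replicate spread. Settings in which a member failed the filter gave no value and are not among the 570. No member passed the filter at a mean of 10 CPM. In fits of the compared groups alone, miR-135b-5p was not tested for spheroid shRELA against shNeg, nor miR-135b-3p in the adherent comparisons. The exceptions follow. DESeq2 called spheroid shRELB against shRELA for miR-135a-5p (log2 -1.89). On limma's log2(CPM + 1) scale, which compresses low levels, adherent miR-135b-5p stood at -1.23 for shRELA against shNeg and 2.81 for shRELB against shRELA, and adherent miR-135b-3p at -0.16 for shRELA and 1.06 for shRELB against shNeg and 1.22 between them. With single libraries left out, miR-135a-5p in spheroid shRELB against shRELA ran from -2.45 to -1.29, and adherent shRELA against shNeg from -1.67 to -1.45 for miR-135b-5p and from -0.93 to -0.33 for miR-135b-3p. miR-135b-5p ran from -0.18 to 1.13 for spheroid shRELA against shNeg and from -0.51 to 0.0 for shRELB spheroid against adherent. The spheroid minus adherent difference of shRELB against shRELA ran from -0.26 to 1.06 for miR-135a-5p and from 0.60 to 1.58 for miR-135b-5p. The log2 ratio of miR-135a-5p to miR-135b-5p in shNeg, spheroid against adherent, ran from -0.54 to 0.17, and it turned without spheroid shNeg replicate 1, which has neither arm. The causes of these shifts were not tested. Called miRNAs numbered 34, 64 and 99 in the adherent comparisons and 54, 117 and 150 with only the groups compared, and 137 and 121 for spheroid shRELA and shRELB against 66 and 41. Spheroid shRELB against shRELA had 60 calls and 98 without spheroid shNeg replicate 1. The culture comparisons had 382, 295 and 226 calls and 204, 160 and 132 at a mean of at least 10 CPM, where fewer miRNAs are tested. For shNeg spheroid against adherent, the median log2 change of all miRNAs was -0.26 with TMM and 0.17 with library totals.

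Deviations of same-numbered libraries from their group means correlated with r from -0.524 to 0.36. In spheroid shRELB against shRELA r ran from 0.0372 to 0.214. At most 4 of 8 libraries of a comparison correlated best with their own number. Such a check cannot exclude pairing, and the libraries were treated as unpaired. With the replicate number as a block, none of 42 values of members and ratios changed sign or call; miR-135b-5p in spheroid shRELB against shRELA was 4.14 (edgeR FDR 7.35e-08), and calls in that comparison numbered 58.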

Other observations

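Spheroid shRNA groups also differed in let-7g-5p, whose hairpin neighbours MIR135A1. It averaged 3310 CPM in shNeg, 9880 in shRELA and 8320 in shRELB spheroids, log2 differences from shNeg of 1.58 (SE 0.22, edgeR FDR 1.46e-06) and 1.33 (SE 0.22, edgeR FDR 1.44e-05), both against the same shNeg libraries. The second call was lost with only the groups compared (FDR 0.0336).

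miR-9-3p, the partner arm of miR-9-5p, averaged 4.13 CPM in adherent shRELB against 14.0 in shRELA, a log2 difference of -1.74 (SE 0.50) that edgeR placed just outside the call rule at an FDR of 0.0101. miR-146b-5p was higher in shRELB than in shRELA by 0.78 (SE 0.21, edgeR FDR 0.00576) in adherent cells and by 0.86 (SE 0.21, edgeR FDR 0.00374) in spheroids, which passed on FDR and not on fold. Both were singled out after their values were seen.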
